A study of Rattus norvegicus with 2 samples.

Results

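The 7 genes described here, Ms4a1, Pax5, Ebf1, Fcmr, Bank1, Fcer2 and Tnfrsf13c, mark B cell identity and maturation, and were taken by their symbols from the 25399 gene features of a single-cell data set on the meniscus of the rat knee, a crescent of fibrocartilage. Each symbol matched 1 feature. The study dissociated meniscal tissue with protease and collagenase, sorted viable cells by flow cytometry and sequenced them with the 10x Genomics 3′ v3 chemistry, in which every captured RNA molecule is counted once as a unique molecular identifier (UMI). There was 1 library from aged rats (8422 cell barcodes, 47228750 UMIs) and 1 from young rats (9914 barcodes, 65051972 UMIs). The labels give age only as aged or young, with no strain, sex, treatment or number of animals, and nothing besides the tissue and rat as species is stated to be shared by both groups.

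B cells form in the bone marrow, where precursors first pair a rearranged heavy chain with a surrogate light chain and proliferate, then use the Rag recombinase to rearrange a light chain, and finally leave with a complete receptor. Ebf1 and Pax5 are the transcription factors that commit precursors to this lineage. Ms4a1 encodes CD20, a surface protein that appears late in precursor development; Fcmr encodes the Fc receptor for IgM; Fcer2 encodes CD23, the low-affinity IgE receptor of mature follicular B cells in mouse and human; Tnfrsf13c encodes the receptor for the survival factor BAFF; and Bank1 encodes a scaffold protein of B cell receptor signalling. Plasma cells, which secrete antibody together with the J chain, shut down much of this programme in mouse and human.

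Promoters are shown for Fcmr and Bank1, the pair of genes with an entry in the promoter table that was higher in the unmarked group than in each of the other 4 groups defined below. Both are RefSeq sequences on the rat build GRCr8, running from 250 bases before to 50 bases after the annotated start, 5′ to 3′ along the gene. Fcmr lies at chr13:44889430-44889729 on the plus strand and Bank1 at chr2:227473666-227473965 on the minus strand. Capitals mark matches to the motifs listed after the sequences.
Fcmr: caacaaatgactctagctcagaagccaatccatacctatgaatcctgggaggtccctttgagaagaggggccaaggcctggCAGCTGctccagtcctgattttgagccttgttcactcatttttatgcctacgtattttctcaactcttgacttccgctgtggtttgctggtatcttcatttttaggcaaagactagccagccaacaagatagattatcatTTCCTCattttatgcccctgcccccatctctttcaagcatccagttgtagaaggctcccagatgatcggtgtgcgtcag
Bank1: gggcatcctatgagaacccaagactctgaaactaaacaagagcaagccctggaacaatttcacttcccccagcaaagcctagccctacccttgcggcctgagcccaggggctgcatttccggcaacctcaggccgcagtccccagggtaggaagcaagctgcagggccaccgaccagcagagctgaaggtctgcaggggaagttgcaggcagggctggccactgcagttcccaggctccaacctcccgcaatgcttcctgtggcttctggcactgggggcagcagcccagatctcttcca
Both strands were searched for 4 motifs of B lineage factors. The E box CAGCTG, which reads alike on both strands, occurred once in the Fcmr window, and the purine box GAGGAA occurred once on its opposite strand, where it reads TTCCTC. Of 33469 rat promoter windows of this length, 15.1% held that E box and 27.6% held that purine box. Neither the Ebf1 motif, TCCC and GGGA parted by any 2 bases (in 0.834% of all windows) nor the octamer ATGCAAAT (in 1.78%) was in the Fcmr, Bank1, Ebf1 or Tnfrsf13c window. The Bank1 and Ebf1 windows held none of these letters, and the Tnfrsf13c window held the E box once.

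Barcodes were kept if they had 500 genes or more and no more than 20% mitochondrial UMIs, 6085 aged and 8773 young. A barcode counted as B lineage when it held at least 1 UMI of Cd79a or Cd79b, the signalling chains of the B cell receptor. This gave 3498 aged barcodes (57.5% of those kept) and 7029 young ones (80.1%). Cd79b was found in 99.2% and 99.5% of them and Cd79a in 21.2% and 47.9%. Genes of the labelled tissue were sparse: Comp, a cartilage matrix gene, had a UMI in 8.48% of kept aged and 9.04% of kept young barcodes, and Col2a1, the collagen of cartilage, in 0.148% and 4.86%. The libraries shared 18 barcode sequences. In tissue digests such as these, RNA released from broken cells can add single UMIs to any barcode. Of the B lineage barcodes, 444 aged and 356 young ones rested on a single Cd79 UMI. In the young library these 1-UMI barcodes held Ebf1 in 13.8% after the thinning described below, against 53.6% of barcodes with 2 Cd79 UMIs and 1.96% of barcodes with none. The aged 1-UMI barcodes were close to those with 2 UMIs, at 37.2% against 42.1%, with 6.54% where there was none.

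The B lineage was divided by genes of the developmental steps. The surrogate light chain group (Igll1 and Vpreb1 summing to at least 5 UMIs) held 247 aged and 282 young barcodes. The surrogate light chain and Rag group, which also carried a Rag1 or Rag2 UMI, held 111 and 383. The Rag group, with at least 1 Rag UMI and few surrogate light chain UMIs, held 781 and 2964, of which 495 and 1345 had a single Rag UMI. The J chain group (at least 10 Jchain UMIs) held 246 and 29, and the unmarked group, with none of these, held 2109 and 3369. A further 4 aged and 2 young barcodes combined marks in other ways and were set aside. Genes outside the rule were read without thinning. Dntt, the polymerase active in Rag-expressing precursors, was found in 73.9% and 73.6% of the surrogate light chain and Rag group but in 2.82% and 1.75% of the Rag group. The proliferation gene Mki67 had a UMI in 83.4% and 91.1% of the surrogate light chain group. The plasma cell gene Mzb1 had one in every barcode of the J chain group, but also in 60.3% and 75.2% of the surrogate light chain and 46.2% and 55.6% of the unmarked group. Of the other plasma cell markers, Prdm1 was found in 61.8% and 75.9% of the J chain group, Sdc1 in 69.9% and 75.9% and Xbp1 in 43.5% and 75.9%. In the surrogate light chain group these shares were 4.05% and 3.55%, 9.31% and 27.0%, and 2.43% and 3.90%. Derl3 was at 0 in every group.

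Depth differed strongly between groups. Median UMIs per barcode were 15078 aged and 23392 young in the surrogate light chain group, but 2307 and 3417 in the unmarked group and 25357.5 and 30712 in the J chain group. Detection is therefore given after every barcode was thinned at random to 1000 UMIs, which left out 12 aged and 4 young barcodes of the Rag group and 32 aged and 5 young unmarked barcodes below that depth. Intervals are exact 95% Clopper-Pearson intervals, and levels are CPM, the gene's UMIs per 1e+06 of all UMIs summed over a group. Intervals and detection limits cover counting error only. Cells of 1 library are not replicates.

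Ebf1 was found in every precursor group and was lowest in the J chain group. Its thinned share was 27.1% (21.7 to 33.1) in the aged and 28.4% (23.2 to 34.0) in the young surrogate light chain group, 45.9% and 43.6% in the surrogate light chain and Rag group, and 58.4% (54.8 to 61.9) and 60.1% (58.3 to 61.8) in the Rag group. It was lower again in the unmarked group, at 37.7% (35.7 to 39.9) and 43.7% (42.0 to 45.4), and reached 2.03% and 0% in the J chain group. Without thinning, 16.3% of aged and 27.6% of young J chain barcodes held it. In order of level, the same 5 groups had 329, 542, 798, 305 and 8.0 CPM in the aged library and 290, 472, 819, 496 and 15.9 CPM in the young one. The Rag group was highest and the J chain group lowest in both libraries. In CPM the unmarked group lay below both surrogate light chain groups in the aged library and above both in the young one.

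Pax5, which holds B cells to their identity, was captured in few barcodes of any group. The aged library had 4.43, 9.06, 10.4 and 4.42 CPM in the surrogate light chain, surrogate light chain and Rag, Rag and unmarked groups, and the young library had 7.39, 9.55, 19.2 and 18.0 CPM. The thinned share stayed between 0% and 1.04% in the aged and between 0.709% and 2.62% in the young library over these 4 groups. No Pax5 UMI was found in any of the 246 aged or 29 young J chain barcodes, which at 3 counts allows up to 0.471 CPM and 3.4 CPM. This was the one member with no UMI in the J chain group of either library, although those barcodes were the deepest.

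Ms4a1 separated the unmarked group from the precursors. Its level was 0.521, 1.01 and 4.66 CPM in the aged surrogate light chain, surrogate light chain and Rag, and Rag groups. The aged unmarked group had 37.7 CPM and the aged J chain group 33.7 CPM. In the young library the same groups had 3.62, 2.31, 16.5, 150.3 and 36.3 CPM. The thinned share was 5.92% (4.95 to 7.02) in aged and 16.5% (15.3 to 17.8) in young unmarked barcodes, and no more than 1.28% in any precursor group. The unmarked and J chain groups were the highest in both libraries. In the aged library their unscaled CPM were close, with a ratio of 0.16 on the log2 scale (exact 95% interval −0.08 to 0.40). The interval does not cover scaling. With the edgeR scaling factors used below, 0.217 for the aged J chain and 0.977 for the aged unmarked sum, the J chain level was the higher.

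The share of Ms4a1 in the J chain group differed with and without thinning. Without thinning, 52.8% of aged and 48.3% of young J chain barcodes held it, more than in the unmarked groups (13.6% and 30.8%). After thinning it was found in 2.44% (0.900 to 5.23) and 0% (0 to 11.9), fewer than in the unmarked groups of the same library. The young J chain group had 29 barcodes, so its limit for a share of 0 was 10.3%. One feature without a gene name took 66.9% of the UMIs in the aged and 42.3% in the young J chain group, and its part and that of depth in these shares cannot be told apart.

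Fcmr, whose receptor binds IgM on B cells, was highest in the unmarked group and was also found in precursors. Its thinned share was 4.05% in aged and 3.55% in young surrogate light chain barcodes, 0.901% and 2.61% in those with Rag, 9.10% (7.16 to 11.4) and 7.77% (6.83 to 8.79) in the Rag group and 24.1% (22.3 to 26.0) and 34.6% (33.0 to 36.2) in the unmarked group. The J chain group was lowest, at 0.813% and 0%. As levels, the aged surrogate light chain, surrogate light chain and Rag, Rag, unmarked and J chain groups had 49.5, 24.2, 85.7, 197 and 1.88 CPM, and the young ones 30.7, 24.0, 94.0, 429 and 7.94 CPM. The order of the 5 groups was the same in both libraries.

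Bank1, the receptor scaffold, and Fcer2, the IgE receptor, were sparse in precursors. Bank1 had 2.86, 7.04, 8.25, 21.6 and 0.785 CPM in the 5 aged groups in that order and 3.33, 14.0, 14.5, 60.0 and 2.27 CPM in the young ones. Its thinned share was 4.38% (3.54 to 5.35) and 7.49% (6.62 to 8.43) in the unmarked group. Fcer2 had 5.45 CPM in the aged and 16.0 CPM in the young unmarked group, and its 4 other groups lay between 0.157 and 1.43 CPM in the aged and between 0 and 1.98 CPM in the young library. The unmarked group held 90.4% of the aged and 85.6% of the young B lineage barcodes with an Fcer2 UMI. It made up 60.3% of all aged and 47.9% of all young B lineage barcodes.

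Tnfrsf13c, the BAFF receptor gene, did not follow that order. In the aged library the surrogate light chain group had the highest level, 138 CPM, followed by 126 CPM with Rag, 88.7 CPM in the unmarked group, 52.7 CPM in the Rag group and 33.0 CPM in the J chain group. In the young library the unmarked group was highest at 194 CPM, ahead of 88.4, 74.8, 59.0 and 22.7 CPM in the surrogate light chain, surrogate light chain and Rag, Rag and J chain groups. In CPM the Rag group was lower than both surrogate light chain groups in each library, and the unmarked group stood below them in the aged and above them in the young library. Thinned shares were 13.4%, 7.21%, 3.64% and 10.6% in the aged surrogate light chain, surrogate light chain and Rag, Rag and unmarked groups. The young shares were 8.51%, 3.66%, 4.09% and 18.9%. By share, the young Rag group was not below the surrogate light chain and Rag group (3.40 to 4.86 against 2.01 to 6.06). The aged unmarked share was above that of the surrogate light chain and Rag group. With edgeR's scaling factors the aged unmarked group was lower than the surrogate light chain group by a log2 difference of −0.23 and differed by 0.07 from the surrogate light chain and Rag group.

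**Figure D1:**
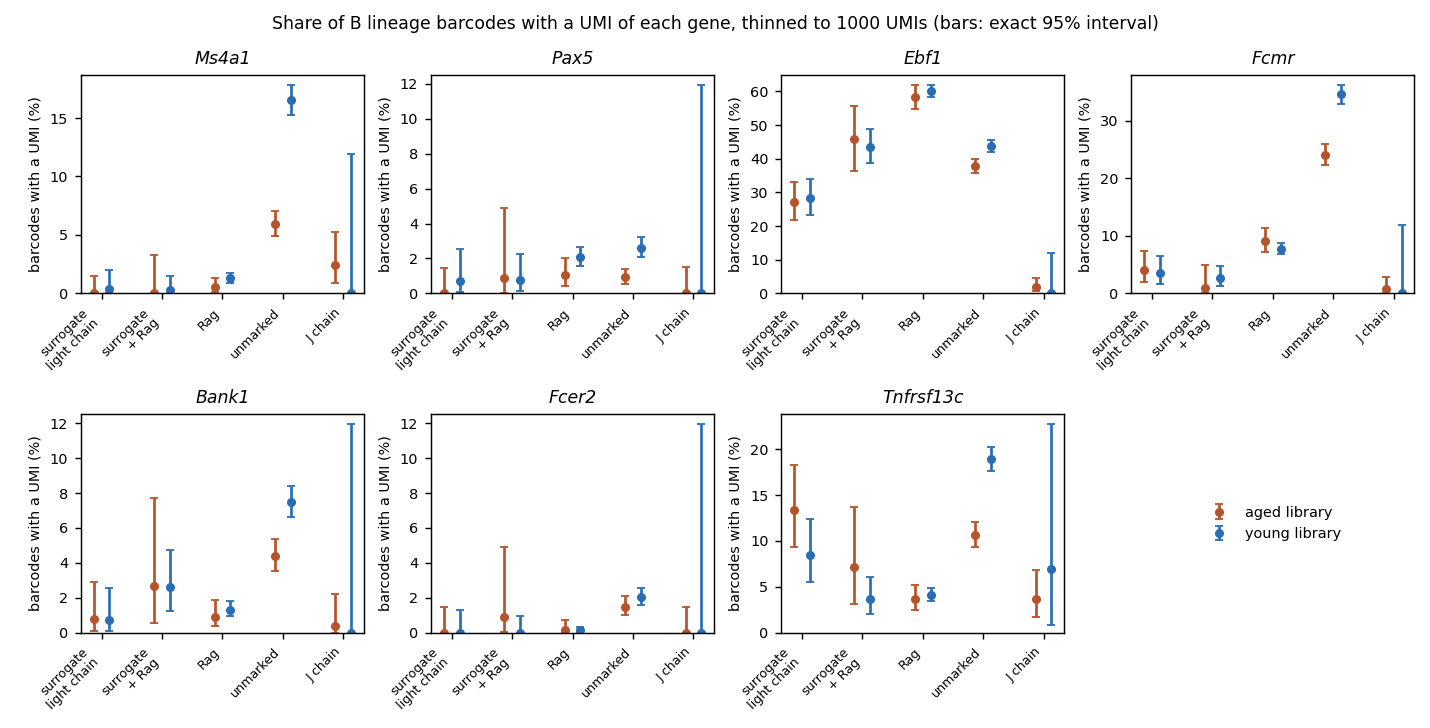
Share of B lineage barcodes with at least 1 UMI of each of the 7 genes (y axis, percent, its scale set for each gene) in the 5 groups (x axis), after thinning to 1000 UMIs. Points are the aged and the young library and bars are exact 95% Clopper-Pearson intervals. Ms4a1 and Fcmr peak in the unmarked group (16.5% and 34.6% in the young library), Ebf1 peaks in the Rag group (60.1% in the young library), and Pax5 is at 0 in the J chain group.

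Levels were compared between groups with edgeR's quasi-likelihood test on the 10 sums of counts per group and library, with library as a term and Benjamini-Hochberg adjustment over all 10571 genes tested; all 7 members passed the filter on low counts. Each group has 2 sums, 1 aged and 1 young. The p-values weigh a difference against how unevenly the 2 libraries differed over all 10 sums, pooled in part across genes. These libraries also differ in age.

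From the surrogate light chain to the unmarked group, 5 of the 7 members rose, against 20.3% of all genes tested. Ms4a1 rose by a log2 fold change of 5.33 (standard error, SE, 0.65; adjusted p = 0.0010 by edgeR's quasi-likelihood test), Bank1 by 3.79 (SE 0.23; adjusted p = 0.00011) and Fcmr by 3.05 (SE 0.30; adjusted p = 0.00050). Fcer2 also passed (adjusted p = 0.00053 in edgeR); with 1 UMI in each surrogate light chain sum, its log2 ratio was 4.39 in the aged (1.86 to 9.72) and 6.78 in the young library (4.29 to 12.1). Ebf1 passed with a change of 0.49 (SE 0.15; adjusted p = 0.037 in edgeR), a call lost without edgeR's scaling factors (0.34; adjusted p = 0.55). As a ratio of unscaled CPM it was −0.11 (−0.20 to −0.01) in the aged and 0.77 (0.70 to 0.84) in the young library, and with those factors 0.30 from the aged and 0.66 from the young library alone. Pax5 had a log2 difference of 0.89 (adjusted p = 0.063) and Tnfrsf13c of 0.47 (adjusted p = 0.36) in the same edgeR test. For Tnfrsf13c the libraries pulled apart, with CPM ratios of −0.64 (−0.79 to −0.48) aged and 1.13 (1.01 to 1.26) young, and −0.23 and 1.02 with the factors. The median over the members was 3.05, and 0.07 over all genes.

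Against the surrogate light chain and Rag group, 4 of 7 members were higher in the unmarked group, where 8.86% of all genes were. These were Ms4a1 (5.85, SE 0.76; adjusted p = 0.0028 in edgeR), Fcmr (3.95, SE 0.33; adjusted p = 0.00046), Bank1 (2.12, SE 0.21; adjusted p = 0.00098) and Fcer2 (2.96, SE 0.45; adjusted p = 0.0056). The transcription factors did not pass, with Pax5 at 0.57 (adjusted p = 0.31 in edgeR) and Ebf1 at −0.06 (adjusted p = 0.84). The member median was 2.12 and that of all genes 0.03.

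The step from the Rag to the unmarked group moved few genes, 0.662% of all tested upwards, and again 4 of the 7 members were among those that rose. Bank1 changed by 1.99 (SE 0.19; adjusted p = 0.0051 in edgeR), Fcmr by 1.98 (SE 0.28; adjusted p = 0.022), Fcer2 by 2.99 (SE 0.40; adjusted p = 0.018) and Ms4a1 by 3.15 (SE 0.52; adjusted p = 0.036). Tnfrsf13c differed by 1.54 (adjusted p = 0.11 in edgeR), Ebf1 by −0.79 (adjusted p = 0.058) and Pax5 by −0.32 (adjusted p = 0.61). The member median was 1.98, and −0.01 over all genes. These calls depended on the barcodes used: in barcodes with 1000 genes or more and no more than 10% mitochondrial UMIs, none of the 7 passed, and with at least 3 Cd79 UMIs only Bank1 did. Their fold changes under these settings kept their direction, for instance 2.89 and 3.40 for Ms4a1.

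Against the J chain group, 5 of 7 members were higher in the unmarked group, where 16.8% of all genes were. Ebf1 was higher by 3.21 (SE 0.19; adjusted p = 7e-05 in edgeR), Fcmr by 4.51 (SE 0.41; adjusted p = 0.00021) and Bank1 by 2.80 (SE 0.35; adjusted p = 0.00069). Pax5 passed too (adjusted p = 0.012 in edgeR), and against the limit of 3 counts per J chain sum it was at least 9.38-fold higher in the aged and at least 5.28-fold higher in the young library. Fcer2 (adjusted p = 0.012 in edgeR) had 1 UMI in the aged J chain sum, a log2 ratio of 5.12 (2.59 to 10.4), and none in the young one, where it was at least 4.69-fold higher. Tnfrsf13c differed by 0.17 (adjusted p = 0.79 in edgeR) and Ms4a1 by −1.12 (adjusted p = 0.12).

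How a J chain sum is scaled decided part of that comparison. The large share of the unnamed feature pushed down the CPM of all other genes there, and edgeR's scaling factors offset this. Without them the Ms4a1 difference turned to 0.93 (adjusted p = 0.043 in edgeR) and all 7 members were called higher. Without the aged library it was 0.40 and without the young one −2.01. The calls for Pax5 and Fcer2 were lost when the deepest 8% of barcodes were left out (adjusted p = 0.14 and 0.40 in edgeR), and those for Pax5, Fcer2 and Bank1 with stricter group thresholds.

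Between the surrogate light chain and the Rag group, 6 of 7 members rose, against 18.2% of all genes. Ebf1 rose by 1.28 (SE 0.16; adjusted p = 0.00073 in edgeR), Bank1 by 1.80 (SE 0.25; adjusted p = 0.0013), Fcmr by 1.07 (SE 0.29; adjusted p = 0.021), Pax5 by 1.21 (SE 0.33; adjusted p = 0.026) and Ms4a1 by 2.18 (SE 0.72; adjusted p = 0.045). Fcer2 also passed (adjusted p = 0.020 in edgeR). Tnfrsf13c differed in the other direction, by −1.06 (SE 0.39; adjusted p = 0.063 in edgeR), and was lower in both libraries. Ebf1 and Bank1 were the 2 members that still passed in barcodes with 1000 genes or more and no more than 10% mitochondrial UMIs, and also the 2 that passed when the groups were allowed to overlap. The member median was 1.28 and that of all genes 0.11.

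**Figure D2:**
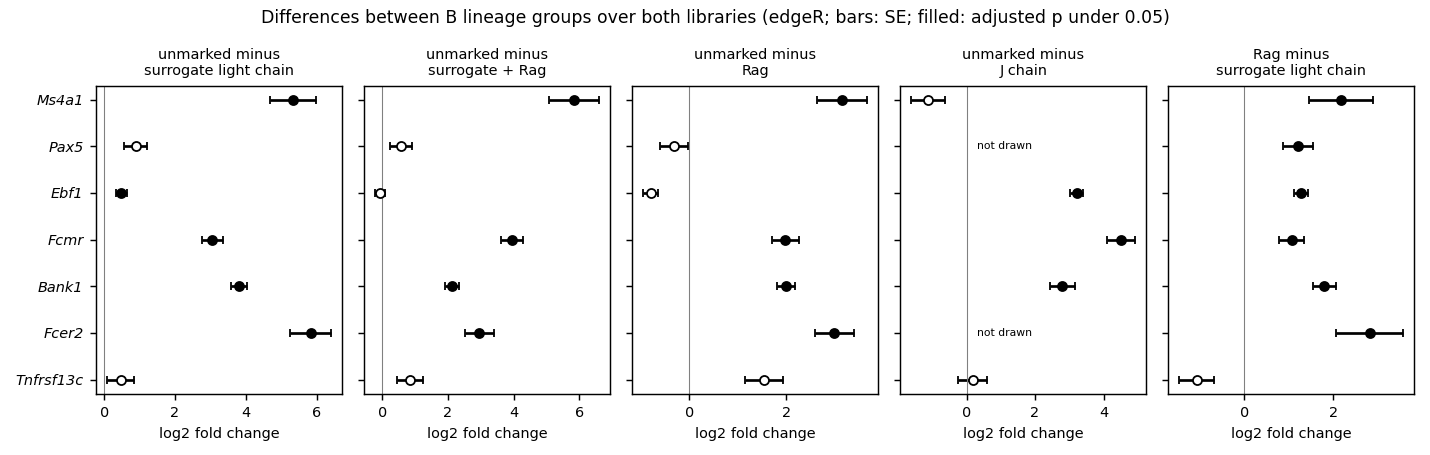
Log2 fold changes of the 7 genes from edgeR for the 5 comparisons between B lineage groups, 1 panel for each comparison, with bars of 1 standard error. Filled points passed an adjusted p of 0.05, and Pax5 and Fcer2 are not drawn against the J chain group, where they had 0 or 1 UMI. Ms4a1, Fcmr, Bank1 and Fcer2 passed in all 3 comparisons of the unmarked group with a precursor group, and Tnfrsf13c passed in none of the 5.

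The genes around the members were read from lists of B lineage and other cell types. Between the surrogate light chain and unmarked groups 20.3% of all genes tested rose and 16.4% fell. Of 8 tested genes of mature and recirculating B cells, 8 rose from the surrogate light chain to the unmarked group, among them Cd74, which escorts MHC class II (5.62; adjusted p = 0.00013 in edgeR), the co-stimulatory receptor Cd40 (3.33) and the lymphocyte egress receptor S1pr1 (3.04); 2 of the 8 rose from the Rag group. Of 17 other B lineage transcription factors, 7 rose and 2 fell, with Irf8 (2.82) and Foxo1 (1.76) up and Lef1 (−3.13) and Erg (−1.69) down. Of 16 receptor signalling genes, 7 rose, such as the inhibitory Fc receptor Fcgr2b (3.17), and 1 fell. Of 8 precursor genes, the surrogate light chain gene Vpreb2 (−5.71), Dntt (−4.60) and the interleukin receptor gene Il7r (−2.31) fell and 2 rose, and of 11 cell cycle genes 4 fell and none rose.

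Genes of other cell types moved with the members. From the surrogate light chain to the unmarked group, 6 of 7 neutrophil genes, 5 of 5 macrophage genes, 7 of 11 plasma cell genes, 2 of 4 erythroid and 2 of 4 stromal genes rose, and of 4 T cell genes 1 rose and 1 fell, where 20.3% of all genes rose and 16.4% fell. The summed neutrophil genes had 1457 CPM in the aged and 1053 CPM in the young surrogate light chain group, 2885 and 5761 CPM in the Rag group, and 4186 and 11797 CPM in the unmarked group. The summed macrophage genes had 9.11 and 11.3 CPM, 15.4 and 43.5 CPM, and 221 and 170 CPM in those groups, and no neutrophil or macrophage gene was at 0 there. The summed plasma cell genes had 3057 CPM in the aged and 843 CPM in the young unmarked group. Without barcodes that carried marks of another cell type (7.44% of aged and 11.1% of young unmarked barcodes), Ms4a1 rose by 5.38, Fcmr by 3.13, Bank1 by 3.60 and Ebf1 by 0.63 between the same groups, and 5 of 7 members passed. In the surrogate light chain group 19.0% and 48.6% of barcodes carried such a mark, mostly through the T cell receptor component Cd3g (found in 35.6% and 67.4%), while Cd3e was found in 2.43% and 2.48%.

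The unmarked group was not uniform. In the aged library 179 of its barcodes drew at least 10% of their UMIs from the unnamed feature that led the J chain group, and the young library had none. In these 179 barcodes, at a median depth of 20594 UMIs, Tnfrsf13c was found in 3.93%, Ebf1 in 2.25%, Ms4a1 in 1.69%, Fcmr in 0.562% and Pax5, Bank1 and Fcer2 in 0% after thinning, where that feature also fills part of the 1000 UMIs. Without thinning Tnfrsf13c was found in 43.6% (31.6 CPM) and Ms4a1 in 40.2% (26.5 CPM), the latter near the 33.7 CPM of the aged J chain group. Mzb1 was found in 84.8% of them. They carried too few J chain UMIs to enter the J chain group by the rule.

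The remaining unmarked barcodes were divided by the proliferation genes Mki67 and Top2a and by Cd74. Cycling barcodes (at least 2 UMIs; 478 aged and 590 young) had Ebf1 in 33.7% and 25.6%, Fcmr in 5.26% and 7.64% and Ms4a1 in 0.632% and 2.55%. Those with neither proliferation gene nor Cd74 (631 and 755) had Ebf1 in 54.1% and 50%, Fcmr in 8.91% and 11.5% and Ms4a1 in 0.162% and 0.531%. Barcodes with a single proliferation UMI (63 and 303) had Ebf1 in 30.5% and 49.8%, Fcmr in 10.2% and 35.2% and Ms4a1 in 0% and 19.6%. In the cycling part and the part with neither, Ms4a1 and Fcmr were found less often than in the whole unmarked group of the same library.

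Fcmr, Ms4a1 and Tnfrsf13c were found often in the part with at least 5 Cd74 UMIs (496 aged and 1146 young barcodes). Fcmr was found in 71.5% (67.3 to 75.5) of the aged and 70.3% (67.6 to 73.0) of the young barcodes, Ms4a1 in 22.4% (18.8 to 26.3) and 40.8% (38.0 to 43.7), and Tnfrsf13c in 23.4% (19.7 to 27.4) and 37.7% (34.9 to 40.6). Bank1 was found in 16.1% and 18.7% and Fcer2 in 6.1% and 4.97%, against no more than 1.17% of aged and 1.05% of young Bank1 and none of Fcer2 in barcodes with 0 or 1 to 4 Cd74 UMIs. Ebf1 ran the other way: it was found in 24.2% (20.5 to 28.2) and 40.4% (37.5 to 43.3) here, below the 58.2% and 57.5% of barcodes with 1 to 4 Cd74 UMIs. Pax5 stayed at 1.02% and 3.23%. Leaving out barcodes with marks of another cell type gave 72.7% and 71.0% for Fcmr and 22.8% and 41.6% for Ms4a1. These parts were defined after the values of the whole group had been seen, and the Cd74 threshold was applied to unthinned UMIs, of which aged barcodes had fewer (medians 1927.5 and 3194.5).

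**Figure D3:**
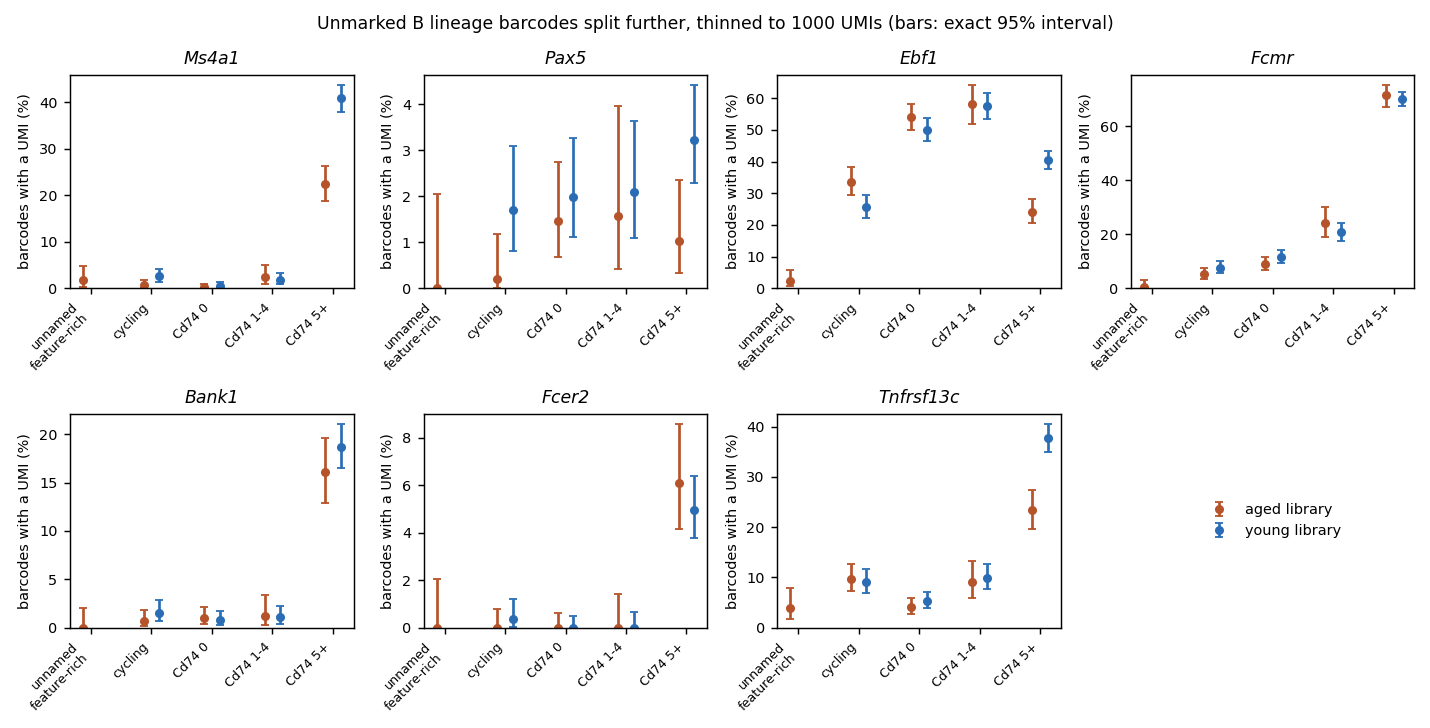
Share of unmarked B lineage barcodes with a UMI of each gene (y axis, percent, its scale set for each gene) after thinning to 1000 UMIs, with the group divided into barcodes rich in the unnamed feature, cycling barcodes, and non-cycling barcodes by Cd74 UMIs (x axis); barcodes with a single proliferation UMI are not drawn. Bars are exact 95% intervals, and the young library has no barcodes rich in the unnamed feature. Fcmr reaches 71.5% and 70.3% at 5 or more Cd74 UMIs, where Ebf1 is lower than at 1 to 4.

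Members found in one barcode tended to be those of the mature programme. Among thinned unmarked barcodes, at least 2 members were found in 19.1% of the aged and 34.9% of the young library, against 8.84% and 9.29% of the Rag group and none of the J chain group. Of barcodes with Ms4a1, 79.7% aged and 71.4% young also held Fcmr, 3.30 and 2.07 times the product of the shares. Ms4a1 with Bank1 stood at 3.53 and 2.67 times, Ms4a1 with Tnfrsf13c at 2.90 and 2.35, and Fcmr with Fcer2 at 3.34 and 2.01. Ebf1 did not join them: with Fcer2 it stood at 0.256 (3 barcodes) and 0.398 times (12 barcodes), with Fcmr at 0.857 and 0.989. These ratios describe barcodes of 1 library each that were thinned to equal depth, and no test was made of them.

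Aged and young libraries were compared within each group, where 1 library per age allows no test. A gene counted as past the fold when its CPM differed at least 1.5-fold with 20 or more summed counts, and intervals cover counting error only. In the unmarked group all 7 members were lower in the aged library, where 48.1% of all compared genes were lower and 4.25% higher. Log2 ratios were −2.0 (−2.15 to −1.85) for Ms4a1, −2.02 for Pax5, −1.55 for Fcer2, −1.48 for Bank1, −1.13 for Tnfrsf13c, −1.12 for Fcmr and −0.70 for Ebf1, and the median of all genes was −0.56. The unnamed feature made up 22.8% of the aged unmarked UMIs and 0.729% of the young ones, which lowers the CPM of every other gene. Without the barcodes rich in it, 5 of 7 members were past the fold (20.6% of all genes were lower), with Ms4a1 at −1.79, Pax5 at −1.42, Fcer2 at −0.94, Bank1 at −0.88 and Tnfrsf13c at −0.71, while Fcmr stood at −0.53 and Ebf1 at −0.11. With edgeR's scaling factors and all barcodes, 6 of 7 were past the fold, Fcmr only just at −0.58, and Ebf1 stood at −0.17.

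Within the barcodes with at least 5 Cd74 UMIs, the members divided. Fcmr had 1248 CPM in the aged and 1336 CPM in the young library, a log2 ratio of −0.10 (−0.18 to −0.02), and Bank1 (158 and 202 CPM; −0.35) and Fcer2 (46.6 and 55.9 CPM; −0.26) also stayed within 1.5-fold. Ms4a1 had 232 and 530 CPM, a ratio of −1.19 (−1.38 to −1.02), Tnfrsf13c had 272 and 516 CPM (−0.93, −1.09 to −0.76), Ebf1 269 and 531 CPM (−0.98, −1.15 to −0.82) and Pax5 10.3 and 30.8 CPM (−1.58). Thus 4 of 7 were lower in the aged library, where 36.2% of the genes compared in these barcodes were lower and the median was −0.35.

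In the precursor groups Ms4a1 was also lower in the aged library, but counts were small. The surrogate light chain group had 2 Ms4a1 UMIs aged and 25 young (log2 ratio −2.80, −5.92 to −0.80), and the Rag group had 13 and 259 (−1.82, −2.75 to −1.02). In the Rag group 3 of 7 members were lower (21.1% of all genes were), the other 2 being Pax5 (−0.89, −1.49 to −0.34) and Bank1 (−0.82, −1.51 to −0.20), while Ebf1 stood at −0.04. In the surrogate light chain group 2 of the 6 members compared were higher in the aged library (8.02% of all genes were) and 2 were lower (12.0% were): Fcmr (0.69, 0.40 to 0.98) and Tnfrsf13c (0.64, 0.47 to 0.81) were higher, and Ms4a1 and Pax5 (−0.74, −1.63 to 0.08) lower. In the surrogate light chain and Rag group Tnfrsf13c was higher (0.75, 0.45 to 1.04), as were 10.6% of all genes, and Bank1 lower (−0.99, −2.35 to 0.11), as were 17.4%. In the J chain group 1 of the 3 members compared was past the fold, Ebf1 at −0.99 (−1.86 to −0.02) from 51 and 14 UMIs, where 66.4% of all genes were lower, and with edgeR's scaling factors its ratio was 0.088, while Ms4a1 and Tnfrsf13c stood at 0.97 and 1.62 against −0.10 and 0.54 without them.

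**Figure D4:**
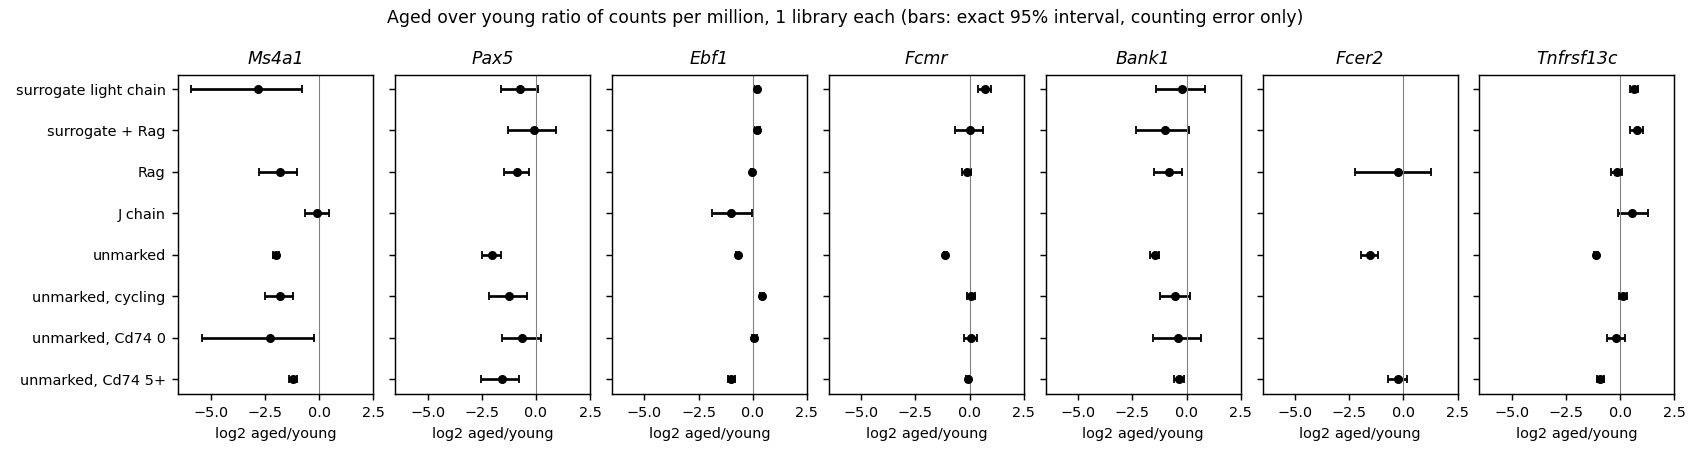
Log2 ratio of aged over young CPM (x axis) of each gene in the 5 B lineage groups and in 3 parts of the unmarked group (y axis), with exact 95% intervals for counting error; a missing point had under 20 summed UMIs. The vertical line marks equal levels. In the part with 5 or more Cd74 UMIs Fcmr lies at −0.10 and Ms4a1 at −1.19.

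Most barcodes with a member belonged to the B lineage. Of kept barcodes with Ms4a1, 95.6% in the aged and 99.3% in the young library held a Cd79 UMI, and for Pax5, Ebf1, Fcmr, Fcer2 and Tnfrsf13c the share was between 85.3% and 95.8% aged and between 97.5% and 99.9% young. Bank1 was the lowest, at 69.8% and 94.0%. B lineage barcodes made up 57.5% of all kept aged and 80.1% of all kept young barcodes. As the reference for free RNA, neutrophil-marked barcodes without Cd79 (754 and 957, median depths 3020.5 and 3331 UMIs) held each member in at most 0.266% of aged and 0.731% of young barcodes after thinning. Neutrophil-marked barcodes with a Cd79 UMI were counted in the B lineage instead, 54 aged and 180 young ones in the unmarked group. Because it leaves these out, the reference can understate free B cell RNA. Read gene by gene, the aged reference had no UMI of Ms4a1 or Pax5 (0 CPM, interval up to 1.25), below the 4.66 CPM (2.48 to 7.97) and 10.4 CPM (6.96 to 14.9) of the aged Rag group. Bank1 in the surrogate light chain group, 2.86 CPM aged and 3.33 CPM young, had intervals that overlapped those of the reference (2.37 and 4.52 CPM) and is read as background there. The same holds for Bank1 in the aged surrogate light chain and Rag group (7.04 CPM). It holds for Ms4a1 in the aged surrogate light chain group (0.521 CPM) and, with Rag, in both libraries (1.01 and 2.31 CPM). Fcer2 in every aged precursor group (0.260, 1.01 and 1.43 CPM) and the young surrogate light chain group (0.145 CPM) is read likewise. Other barcodes without Cd79 could hold more. Aged ones with no mark had Ms4a1 at 3.01 CPM (1.93 to 4.47), which overlaps the aged Rag group. Their Pax5 level, 1.00 CPM (0.433 to 1.98), does not. Bank1 had 11.8 CPM (9.52 to 14.4) there and 12.1 CPM (5.81 to 22.3) in aged T cell-marked barcodes. In the aged Rag group it had 8.25 CPM (5.23 to 12.4), which overlaps both. Young ones with no mark had no Ms4a1 UMI and Bank1 at 9.79 CPM (6.96 to 13.4).

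Some members were also found in barcodes without Cd79 that carried marks of other cells. Among stromal-marked barcodes, 15.4% (12.4 to 18.9) of 509 aged and 7.04% (3.43 to 12.6) of 143 young ones held Ebf1, at 152 and 61.7 CPM. Among macrophage-marked barcodes, 13.9% (8.94 to 20.3) of 158 aged and 4.60% (1.27 to 11.4) of 87 young ones held Fcmr, at 98.0 and 64.9 CPM. Both lie above the neutrophil reference, at deeper medians of 5868 and 15702 UMIs for stromal and 6405 and 10171 UMIs for macrophage marks before thinning. Fcmr also had 19.4 CPM (11.1 to 31.5) in 193 aged and 50.9 CPM (35.8 to 70.1) in 82 young T cell-marked barcodes. After thinning 0.518% and 2.44% of these held it, with intervals overlapping the reference. The young level was above the 30.7 CPM (26.7 to 35.2) and 24.0 CPM (20.3 to 28.3) of the young surrogate light chain groups without and with Rag. T cell marks were carried by 129 of 282 and 83 of 383 barcodes in those groups.

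Across the 10 sums the genes whose log2(CPM + 10) most resembled each member, among 3733 genes reaching 50 CPM in any sum, were recorded as a description. Ms4a1 was most like Cd74, Ahnak and Cotl1 (Pearson r 0.913 for each), Pax5 most like Phf20l1 (0.977), Cd79a (0.975) and Mkrn1 (0.972), and Ebf1 most like Add3 and Znrf2 (0.998 each) and Ing4 (0.997). Fcmr was most like Srgn (0.976), Lcn2 (0.959) and LOC24906 (0.956), Bank1 most like Ctsd (0.968), Mcpt8l3 (0.958) and Plpp3 (0.954), Fcer2 most like Prg2 (0.991), Mcpt8l2 (0.986) and Mcpt8l3 (0.979), and Tnfrsf13c most like Ehd4 (0.892), Dpp7 (0.876) and Mgst3 (0.875). The sums share 2 libraries and differ in depth and in the share taken by immunoglobulin features. Lcn2 is a neutrophil gene, and Prg2 and the Mcpt8 family are granule genes of eosinophils, basophils or mast cells in mouse.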

How the data were processed

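Per the labels' protocols, cells of aged and young rat meniscus were loaded on the 10x Genomics 3′ v3 platform, and per the submitters' processing notes reads were processed with Cell Ranger 6.1.1; the genome build is not given in the sources used here. The deposited matrices hold raw UMI counts per gene and barcode, with no normalization, which the authors made from the reads. The members and all gene lists were chosen with earlier results of these data known.

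Barcodes were kept if they had 500 genes or more and no more than 20% mitochondrial counts. No doublet caller was run; leaving out the deepest 8% of barcodes was an alternative. Groups were exclusive and used unthinned counts. Shares were taken after thinning to 1000 UMIs (seed 7), with exact Clopper-Pearson intervals. Counts were summed per library and group and tested with edgeR 4.0.16 (quasi-likelihood, TMM, filterByExpr, group and library as terms, Benjamini-Hochberg at 0.05); DESeq2 1.42.0 was an alternative. Standard errors are the absolute log2 fold change divided by the square root of the F statistic. The script was tested on simulated data. Python 3.11.15, R 4.3.3, numpy 2.4.6, scipy 1.17.1 and pandas 2.3.3 were used.

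The rule for named genes took all 7 members and for each the 3 genes most correlated over the sums. From each list it took up to 4 called genes with the largest change between the surrogate light chain and unmarked groups. The genes of the group rule, Comp, Col2a1, Mki67 and the plasma cell markers in the group check, Cd3e and the unnamed feature were named outside it. Of the listed symbols, 8 did not match a feature, among them Ighd, Ighm, Trac, Col1a2, Cd93, Sox4 and Ccnb2, and were not used here; 1 called gene that the rule names is not reported here. With 1 library per age, p-values rest on how unevenly the 2 libraries differed over the groups. They do not measure the spread among animals of one age. The labels do not say how many animals each library held. Promoter sequences matched for 4 of the 7 members.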

Additional observations from a re-analysis of the deposited data

Results flagged for a closer look

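The aged over young ratios of Fcmr and Tnfrsf13c differed in sign between B lineage groups taken whole. The log2 ratio of aged over young CPM was 0.69 for Fcmr in the surrogate light chain group and −1.12 in the unmarked group. For Tnfrsf13c it was 0.64 in the surrogate light chain group, 0.75 in the surrogate light chain and Rag group and −1.13 in the unmarked group. With 1 library per age the difference between groups was not tested. Without barcodes rich in the unnamed feature the unmarked values were −0.53 and −0.71. By part of the unmarked group, Fcmr stood at −0.10, −0.02 and 0.05 with at least 5, 1 to 4 and 0 Cd74 UMIs. It stood at 0.06 in cycling barcodes and −1.75 in those with a single proliferation UMI. Tnfrsf13c stood at −0.93, 0.01, −0.19, 0.12 and −1.11 in the same order. Without barcodes with other cell type marks, 1 of the 5 members compared was higher in the aged surrogate light chain group, as were 704 of 8003 genes.

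Members were also found outside the B lineage, in barcodes without a Cd79 UMI. Among macrophage-marked barcodes 13.9% of the aged and 4.60% of the young ones held Fcmr, and among stromal-marked ones 15.4% and 7.04% held Ebf1, all after thinning and above the neutrophil-marked reference. Bank1 reached 25.0 CPM (9 UMIs) in 19 aged and 19.4 CPM (6 UMIs) in 8 young barcodes with at least 5 UMIs of the platelet gene Pf4 and no other mark, against 2.37 and 4.52 CPM in neutrophil-marked barcodes.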

How the results depend on the processing

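No paired analysis was possible because each age has 1 library and the labels carry no shared replicate numbers; this concerns the comparison of ages, while the comparisons between groups had library as a term. A split of the unmarked group by Ighd was not run, since no feature matched that symbol.

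Genes called between the unmarked and surrogate light chain groups fell from 3880 to 2100 without TMM scaling. Against the surrogate light chain and Rag group (1496) they were 822 in barcodes with 1000 genes or more and no more than 10% mitochondrial counts, 860 with at least 3 Cd79 UMIs, 966 with stricter group thresholds and 841 without TMM. Against the Rag group (97) they were 13, 13, 278 and 37 under those settings, 735 without the deepest 8% of barcodes, 312 with overlapping groups, 279 in DESeq2 and 476 with no filter on low counts. Against the J chain group (3484) they were 2087 without the deepest 8%, 1166 with stricter thresholds and 8563 without TMM. Between the Rag and surrogate light chain groups (3695) they were 2248 with overlapping groups and 1883 without TMM.

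Members called against the Rag group (4 of 7) were 0 with at least 1000 genes and 1 with at least 3 Cd79 UMIs. Against the J chain group (5) they were 3 without the deepest 8% and 2 with stricter thresholds. From the surrogate light chain to the Rag group (6) they were 2 with at least 1000 genes, 3 with at least 3 Cd79 UMIs and 2 with overlapping groups. DESeq2 called 6 of 7 against the Rag group, with Tnfrsf13c higher and Ebf1 lower.

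Scaling shifted the balance of calls. Against the surrogate light chain group 2147 genes rose and 1733 fell, and 2338 and 1238 with totals that left out immunoglobulin features; against the Rag group 70 and 27, and 31 and 6 without TMM. Against the J chain group 1771 and 1713 became 8347 and 216 without TMM and 3392 and 1049 without immunoglobulin features. From the surrogate light chain to the Rag group 1927 and 1768 became 1232 and 651, and 2339 and 1272.

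Reversed values were Ms4a1 against the J chain group, 0.93 without TMM, and the Ebf1 age ratio in the J chain group, 0.90 with stricter thresholds and 0.088 with TMM. Without the aged library the fold changes of Tnfrsf13c against the surrogate light chain group and of Pax5 against the surrogate light chain and Rag group were 1.02 and 0.92, and without the young one −0.23 and −0.45, values with no test.

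The unmarked share of Ms4a1 was 3.37% aged and 9.97% young at 500 UMIs, 7.17% and 25.0% at 2000 UMIs, 13.6% and 30.8% unthinned, 7.28% and 18.6% with at least 3 Cd79 UMIs, 4.45% and 12.0% with stricter thresholds, 2.11% aged with at least 1000 genes, and 18.1% young without other cell type marks. The share of Fcmr was 16.0% and 22.8% at 500 UMIs, 37.4% and 54.6% unthinned, 19.0% and 26.8% with stricter thresholds, 10.8% aged with at least 1000 genes, 26.3% aged without barcodes rich in the unnamed feature, and 46.3% young at 2000 UMIs, 38.7% with at least 3 Cd79 UMIs and 37.4% without other marks. The cause of these changes was not tested. Of 490 member fold changes under alternatives, 398 were counted as unchanged. For tested values this means the same side of the threshold, with no change of direction where a call was made. For the untested values with a single library left, it means within a standard error of the main value.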
